A study of Mus musculus with 8 samples.

Results

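The genes of fatty acid uptake and beta-oxidation were examined in the hearts of mouse embryos at embryonic day 11.5 (E11.5). The 39 genes were found by symbol among the 23846 entries of the deposited expression table, and 38 of them were expressed highly enough to be tested, the exception being Ppara. RNA-seq had been performed on 4 cKO and 4 control libraries of whole hearts. The cKO embryos were Ogt f/y; TnT-Cre, in which a Cre transgene under a cardiac troponin T promoter deletes the floxed X-linked Ogt gene in cardiomyocytes and leaves it intact in the other cells of the heart. The controls carry the labels control and OGTWT, and the study calls them littermates. It crossed Ogt f/f females with TnT-Cre males, and lists the male offspring without Cre as Ogt f/y. The genotype of each control library is not given, and OGTWT need not mean a wild-type allele. The strain is labelled B6, while the study's methods give a mix of 129/SvJ with C57BL/6J, and it is not stated whether hearts were pooled. Ddx3y, a gene of the Y chromosome, lay between 13.2 and 17.7 FPKM in the cKO libraries and between 11.5 and 16.8 FPKM in the control libraries. Xist was at most 0.0741 FPKM in cKO and 0.0521 FPKM in control libraries, so both groups read as male. Values are FPKM, fragments scaled to transcript length in kilobases and to the mapped fragments of the library, a scale on which levels of different genes can be set side by side.

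Long-chain fatty acids enter cardiomyocytes with the help of carriers such as CD36, are bound in the cytosol by fatty acid binding proteins and are activated to acyl-CoA by acyl-CoA synthetases. The carnitine shuttle moves the acyl group into mitochondria, where repeated rounds of dehydrogenation, hydration, a second dehydrogenation and thiolysis release acetyl-CoA, and electrons leave through the electron transfer flavoproteins. The embryonic heart is known to draw most of its energy from glucose and lactate, and fatty acid oxidation becomes the main source of energy of the heart after birth. OGT, the enzyme removed here, adds O-GlcNAc to nuclear and cytosolic proteins.

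Ogt itself was 20.1, 21.6, 24.7 and 21.5 FPKM in the 4 cKO libraries, against 41.6, 43.3, 37.5 and 46.2 FPKM in the control libraries. All cKO libraries lay below the lowest control library (log2 fold change -0.92 ± 0.08 SE, adjusted p = 0.000149 by Benjamini-Hochberg in limma). In RNA from whole hearts, fewer cells of a type and less RNA per cell cannot be told apart. This holds for every value below. Of the 16 markers of cardiomyocytes, 1 was lower in cKO hearts, and their summed level overlapped between the groups (25833 to 29034 FPKM in cKO and 24992 to 32193 FPKM in control libraries). Of 11 endothelial markers, 7 were lower (308 to 330 FPKM summed in cKO, 350.4 to 384 FPKM in control). Of 10 epicardial markers, 4 were higher (222 to 260 FPKM in cKO, 175 to 202 FPKM in control). Over all entries tested, 14.9% were lower and 15.9% were higher. Of 8 smooth muscle and mural genes tested, 2 were called, Cnn1 and Acta2, both lower (log2 fold changes -1.61 and -0.91). The summed level of the list did not overlap (992 to 1097 FPKM in cKO, 1165 to 1397 FPKM in control). This sum, with means of 1046 and 1296 FPKM, rests on those 2 genes and does not describe the list as a whole. Acta2 averaged 266 FPKM in cKO and 497 FPKM in control, and Cnn1 48.4 and 148 FPKM. The other 6 tested were not called, with Tagln at 115%, Des at 112% and Cspg4 at 76.3% of the control mean. Myh11, too low to be tested, was higher, at 0.341 to 0.471 FPKM in cKO and 0.188 to 0.257 FPKM in control. Of 4 tested genes of skeletal muscle, 3 were higher, the troponin genes Tnni2, Tnnt3 and Tnnt1 (log2 fold changes 2.33, 1.08 and 0.75). The list summed to 596 to 716 FPKM in cKO and 373 to 457 FPKM in control libraries. Acta1 was not called, at 88.6% of the control mean. Myod1, Myf5 and Pax7 were at most 0.015 FPKM in every library. Myog, also too low to be tested, was 0.171 to 0.594 FPKM in cKO and 0.058 to 0.129 FPKM in control. Erythroid transcripts overlapped and varied widely, at 36412 to 54022 FPKM in cKO libraries and at 17617 FPKM in control library 1 and 69421 FPKM in control library 4. Liver transcripts summed to 78.7 FPKM in cKO library 3 and to no more than 15.5 FPKM in any other library. The part of these differences in the results below was not tested. Control library 3 stood apart in another way. Its transcripts under 1000 bases lay at a median of 0.34 above the mean of the other control libraries on the log2 scale, and its transcripts of 8000 bases or more at -0.27. The highest control value came from library 3 in 25 of the 38 tested members (65.8%), against 46.6% of all entries tested. The library descriptions carry 2 prefixes of unstated meaning, OGF355 on 1 cKO and 2 control libraries and OGF373 on 3 cKO and 2 control libraries, while the names of the value columns put OGF373 on all 8, so that this division rests on the descriptions alone. Differences within each prefix are given below for the main genes.

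Of the 38 members tested, 16 (42.1%) were lower in cKO hearts at an adjusted p under 0.05, where 14.9% of all 12629 entries tested were lower. A further 5 members (13.2%) were higher, against 15.9% of all entries, and 17 did not pass the threshold. In either direction, 30.7% of all entries were called. Most of the changes were small. The means of the 16 lower members in cKO hearts were between 47.3% and 89.2% of their control means. A fold change over 1.5 was reached by 3 of the lower members (Acat1, Cpt2 and Ehhadh) and by 1 of the higher ones (Acad10). The median log2 fold change was -0.10 over the members and 0.02 over all entries tested. In all 21 called members the values of the groups did not overlap. Groups that did not overlap were found for 16.3% of all entries in the lower direction and for 16.5% in the higher direction. Each of the 21 therefore differed in the direction of its call within both library label prefixes. Groups that do not overlap fix this direction in advance, so it adds no further evidence. Without control replicate 3, 16 members were lower and 8 were higher, while 17.0% of all entries were lower and 22.2% were higher.

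**Figure D1:**
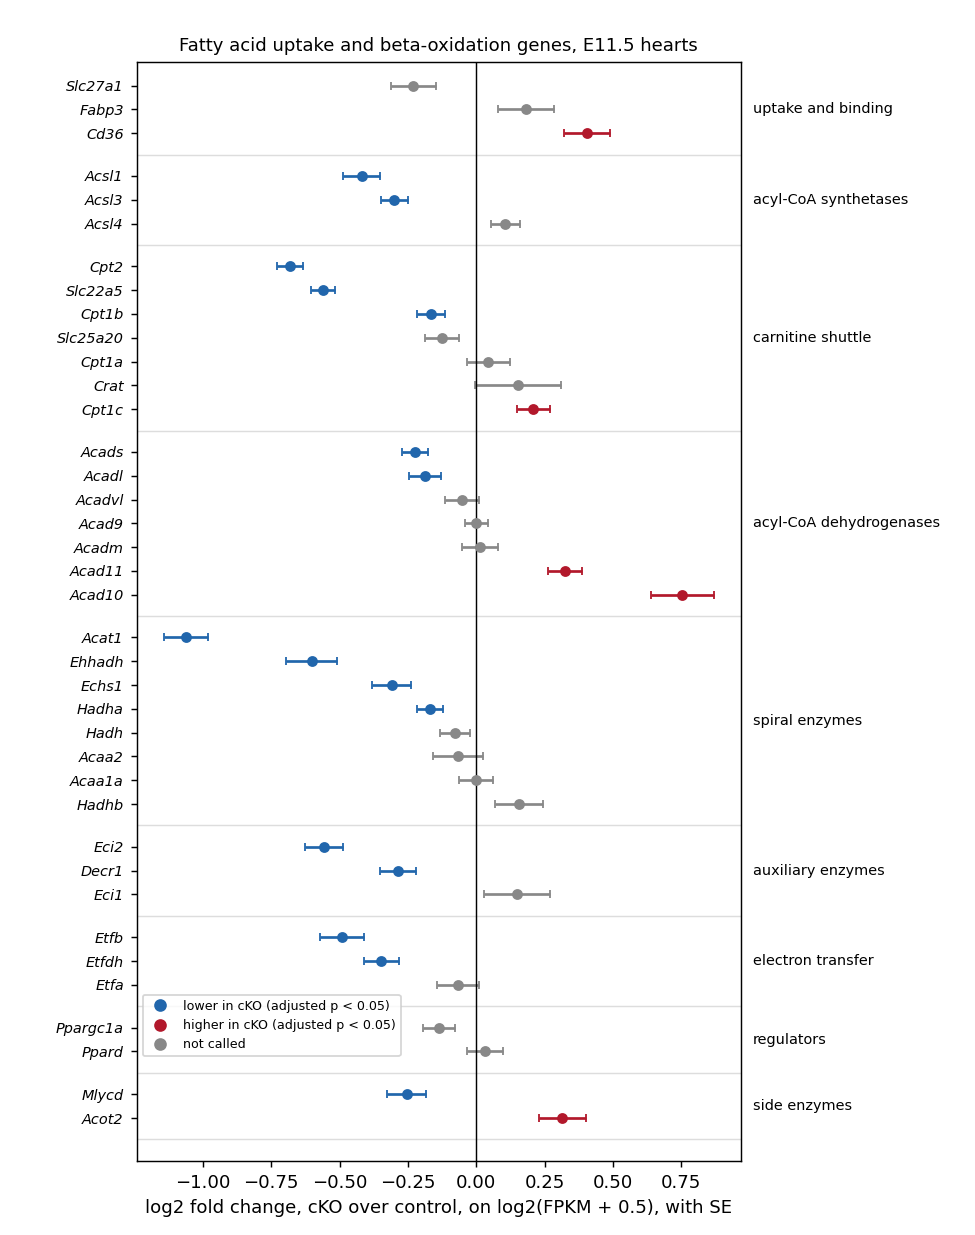
Log2 fold change, cKO over control, of the 38 tested members on the log2(FPKM + 0.5) scale, grouped by role. Points are estimates and bars are standard errors, with 16 members lower in cKO, 5 higher and 17 not called; values run between -1.06 for Acat1 and 0.75 for Acad10.

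The promoters of the members were read from RefSeq to show what sequence lies at the genes that moved together or apart. RefSeq promoters of the GRCm38.p6 assembly were matched to 33 of the 39 members, which gave 36 windows of 300 bases (250 before and 50 after a start site). Of these windows, 4 are shown without their transcribed bases. The first lies between Hadha and Hadhb, which encode the subunits of one enzyme and of which Hadha was lower in cKO hearts while Hadhb was not called. The next pair belongs to Slc22a5, which was lower, and Cpt1c, which was higher, both listed here with the carnitine shuttle. The last belongs to Etfdh, which was lower. Capitals mark GGGGCGGGG or its reverse complement, a GC box of the kind bound by Kruppel-like factors, in Slc22a5 and Cpt1c. In Etfdh they mark CGCATGCG, the core of the element bound by the transcription factor NRF1.
Hadha, chr5:30154981-30155230, minus strand: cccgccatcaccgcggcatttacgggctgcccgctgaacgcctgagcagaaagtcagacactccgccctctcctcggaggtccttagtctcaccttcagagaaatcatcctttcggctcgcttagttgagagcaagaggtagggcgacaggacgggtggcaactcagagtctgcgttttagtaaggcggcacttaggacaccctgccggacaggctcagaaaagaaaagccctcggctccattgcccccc
Slc22a5, chr11:53891704-53891953, minus strand: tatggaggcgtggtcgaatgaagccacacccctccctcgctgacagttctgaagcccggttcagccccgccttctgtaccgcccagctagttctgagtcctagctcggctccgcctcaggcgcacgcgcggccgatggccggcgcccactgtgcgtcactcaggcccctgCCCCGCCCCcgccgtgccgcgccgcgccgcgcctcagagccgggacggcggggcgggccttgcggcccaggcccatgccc
Cpt1c, chr7:44974852-44975101, minus strand: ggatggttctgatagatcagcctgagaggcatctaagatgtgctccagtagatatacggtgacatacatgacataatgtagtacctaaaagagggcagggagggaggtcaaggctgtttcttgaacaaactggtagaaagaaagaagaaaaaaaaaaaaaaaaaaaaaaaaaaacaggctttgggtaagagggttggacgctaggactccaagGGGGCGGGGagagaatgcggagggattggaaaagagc
Etfdh, chr3:79628768-79629017, minus strand: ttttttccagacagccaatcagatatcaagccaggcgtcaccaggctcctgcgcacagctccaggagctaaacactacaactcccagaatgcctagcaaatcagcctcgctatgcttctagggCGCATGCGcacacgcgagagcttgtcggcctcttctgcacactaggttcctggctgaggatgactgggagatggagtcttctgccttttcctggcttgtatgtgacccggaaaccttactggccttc
Each motif was searched on both strands of the full windows, and the motifs were chosen with the results known. The GC box was found in 11 of the 36 member windows (30.6%), against 11.4% of the 32851 windows of all genes. The members' windows were also richer in G and C (median 61.0%, against 52.67% in all windows). Of the genes with a GC box, Acads, Acsl1, Acsl3, Eci2 and Slc22a5 were lower, Cpt1c was higher, and Cpt1a, Eci1, Hadh, Ppard and Slc27a1 were not called. The NRF1 core was found at Acad10, Acadm, Etfdh and Ppara (11.1% of member windows and 1.87% of all windows), of which Acad10 was higher, Etfdh was lower, Acadm was not called and Ppara was not tested. The half-site AGGTCA, which nuclear receptors such as the PPARs bind in pairs, was found in 6 member windows (16.7%, against 16.3% of all windows). TCAAGGTCA, the element of estrogen-related receptors, which holds AGGTCA, was found in 0 member windows and 0.423% of all windows. A match is a description of the letters in these windows.

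Of the 3 genes of fatty acid uptake and binding, 1 was higher and the others were not called. Cd36, the membrane carrier of long-chain fatty acids (chr5:17781690-17888959, mm10), was 18.6, 20.6, 18.8 and 21.4 FPKM in cKO hearts, against 13.3, 13.8, 17.2 and 15.2 FPKM in control hearts. All cKO libraries were above all control libraries (log2 fold change 0.41 ± 0.08 SE, limma adjusted p = 0.00736), with differences of 0.44 within OGF355 and 0.31 within OGF373. Cd36 is also expressed by capillary endothelium, and of 11 endothelial markers 7 were lower and 4 were not called. The part of cell content in the Cd36 value was not tested. Fabp3, the fatty acid binding protein of heart muscle, was the most abundant member. Its level was 445, 474, 419 and 479 FPKM in cKO hearts and 354, 375, 489.8 and 392 FPKM in control hearts. The groups overlapped through control library 3, and the log2 difference of 0.18 was not called (adjusted p = 0.216 from limma). Without control replicate 3 it was called as higher. Slc27a1, which encodes the fatty acid transport protein FATP1, was 3.38, 3.02, 3.89 and 3.62 FPKM in cKO hearts and 4.49, 4.42, 3.93 and 3.80 FPKM in control hearts (log2 difference -0.23, adjusted p = 0.0645).

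Both Acsl1, the main long-chain acyl-CoA synthetase of heart, and Acsl3, a synthetase of the endoplasmic reticulum and lipid droplets, were lower in cKO hearts. Acsl1 was 7.35, 6.31, 7.13 and 6.97 FPKM in cKO libraries, against 10.3, 8.88, 8.75 and 9.94 FPKM in control libraries (log2 fold change -0.42 ± 0.07 SE, limma adjusted p = 0.00228). Acsl3 lay within a narrow range of 18.7, 19.0, 19.0 and 19.1 FPKM in cKO libraries, and was 22.6, 22.8, 25.7 and 22.8 FPKM in control libraries (log2 fold change -0.30 ± 0.05 SE, adjusted p = 0.00261). Control library 3 was the highest for Acsl3, and the other 3 control libraries were still above every cKO library. The locus of Acsl3 overlaps that of Utp14b, which was not called. Acsl4, the synthetase that prefers arachidonic acid, had 13.1 to 14.3 FPKM in cKO hearts and 12.0 to 13.4 FPKM in control hearts and was not called.

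Within the carnitine shuttle, Cpt2 and Slc22a5 had the largest differences. Cpt2, which returns the acyl group to CoA at the inner mitochondrial membrane (chr4:107903982-107923589), was 13.7, 12.8, 12.5 and 12.6 FPKM in cKO hearts, against 22.1, 20.3, 21.0 and 20.4 FPKM in control hearts. This was 61.5% of the control mean (log2 fold change -0.68 ± 0.05 SE, limma adjusted p = 6.1e-05), and neither control library 3 nor any other library stood out. The difference was -0.61 within OGF355 and -0.69 within OGF373. Slc22a5, the plasma membrane carrier of carnitine (OCTN2), was 3.43, 3.57, 3.53 and 3.34 FPKM in cKO hearts and 5.48, 5.19, 5.44 and 5.32 FPKM in control hearts (log2 fold change -0.56 ± 0.04 SE, adjusted p = 1.0e-04). The groups were far apart relative to their spread, with SDs of 0.103 FPKM in cKO and 0.128 FPKM in control hearts.

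The 3 isoforms of Cpt1 differed in direction. Cpt1a and Cpt1b link the acyl group to carnitine at the outer membrane, a role not assumed here for Cpt1c. Cpt1b, the muscle isoform, was 61.5, 61.1, 55.3 and 60.2 FPKM in cKO hearts and 69.2, 64.9, 68.1 and 64.9 FPKM in control hearts (log2 fold change -0.16 ± 0.05 SE, limma adjusted p = 0.0363). This call was lost in 9 of 21 alternative settings, among them the leaving out of cKO replicate 2, 3 or 4 or of control replicate 1, 2 or 4. The Cpt1b locus overlaps that of BC090627, which was not called. Cpt1c, the isoform known from neurons, was 4.64, 5.05, 5.04 and 4.85 FPKM in cKO hearts, against 4.32, 4.51, 4.11 and 3.75 FPKM in control hearts (log2 fold change 0.21 ± 0.06 SE, adjusted p = 0.031), a call lost in 6 of 20 settings. Cpt1a, the liver isoform, was 10.6, 9.26, 9.71 and 10.2 FPKM in cKO hearts and 10.5, 10.1, 8.19 and 9.78 FPKM in control hearts, and the groups overlapped (log2 difference 0.04 ± 0.08 SE, adjusted p = 0.697). Cpt1b made up 80.0% ± 0.843 of the summed Cpt1 FPKM in cKO hearts and 82.9% ± 1.32 in control hearts (SD, n = 4 each). Slc25a20, the carrier that exchanges acylcarnitine for carnitine, and Crat, which forms acetylcarnitine, were not called, with log2 differences of -0.13 and 0.15. Crat varied the most among the members not called (standard error 0.16).

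**Figure D2:**
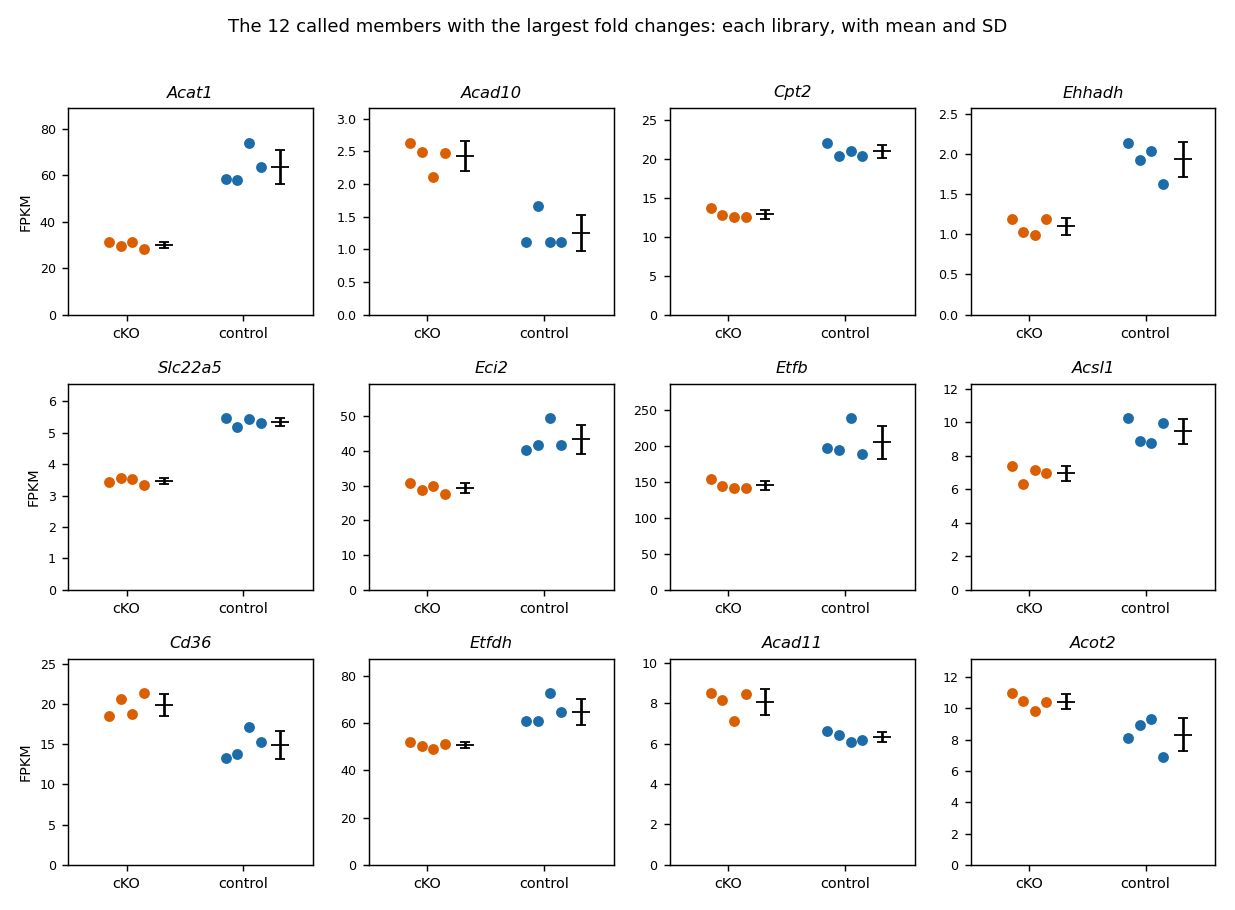
FPKM in each library, cKO left and control right, of the 12 called members with the largest fold changes. Points are libraries, dashes and bars are the mean and SD (n = 4 each), and in each panel the cKO and control points do not overlap, as for Acat1 with 28.2 to 31.1 FPKM in cKO and 58.0 to 73.9 FPKM in control hearts.

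The acyl-CoA dehydrogenases, which carry out the first step of each round, split by member. Acads and Acadl, the short-chain and long-chain enzymes, were lower, with means of 53.1 ± 0.848 against 62.2 ± 3.09 FPKM and of 101 ± 1.77 against 115 ± 8.47 FPKM in cKO and control hearts (SD, n = 4 each). Their log2 fold changes were -0.22 (adjusted p = 0.00814 from limma) and -0.19 (adjusted p = 0.039), and the call of Acadl was lost in 9 of 21 settings, including each that left out 1 cKO library. Acadvl, Acadm and Acad9, of which the first acts on very long and the second on medium chains, were not called, with log2 differences between -0.05 and 0.01. In contrast, Acad10 and Acad11 were higher. Acad10 (chr5:121621029-121660510), a member of the family with a hydrolase-like and a kinase-like domain, was 2.63, 2.49, 2.10 and 2.48 FPKM in cKO hearts, against 1.12, 1.66, 1.11 and 1.11 FPKM in control hearts. The lowest cKO library was above control library 2, which was itself above the other 3 control libraries (log2 fold change 0.75 ± 0.12 SE, adjusted p = 0.00186). Acad11 was 8.50, 8.17, 7.11 and 8.46 FPKM in cKO hearts and 6.62, 6.42, 6.07 and 6.17 FPKM in control hearts (log2 fold change 0.33 ± 0.06 SE, adjusted p = 0.00516).

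Acad10 has neighbors on chromosome 5 that were also higher in cKO hearts. Acad12, a related dehydrogenase that lies next to it (chr5:121598281-121618938), had a mean of 7.04 FPKM in cKO and 2.91 FPKM in control hearts (log2 fold change 1.14, adjusted p = 6.01e-05 from limma). Tmem116 averaged 2.59 FPKM in cKO and 0.908 FPKM in control hearts (log2 fold change 1.12, adjusted p = 0.000241). Mapkapk5 and Aldh2, which lie between Tmem116 and Acad12, were not called, with log2 differences of 0.03 and -0.11. Brap, on the other side of Acad10, was higher by 0.24 on the log2 scale (adjusted p = 0.0156), and Sh2b3, farther along on that side, was lower, with a log2 fold change of -0.26 (adjusted p = 0.0015). The other genes tested within 200 kilobases of Acad10 were not called. These neighbors were looked up after the value of Acad10 was seen, and whether reads were shared between Acad10 and Acad12 was not tested.

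Among the enzymes that complete the spiral, 4 of 8 were lower and 0 were higher by limma (0 also at an unadjusted p under 0.05). Over all entries tested, 14.9% were lower and 15.9% were higher. Acat1, the mitochondrial thiolase that acts on acetoacetyl-CoA in ketone body and isoleucine breakdown as well as in the last round of oxidation, had the largest change of any member (chr9:53580522-53610350). It was 31.1, 29.5, 31.1 and 28.2 FPKM in cKO hearts, against 58.4, 58.0, 73.9 and 63.4 FPKM in control hearts. The cKO mean was 47.3% of the control mean, and the groups lay far apart with or without control library 3 (log2 fold change -1.06 ± 0.08 SE, limma adjusted p = 8.95e-05). The difference was -0.89 within OGF355 and -1.20 within OGF373. Ehhadh, the bifunctional enzyme of peroxisomes, was 1.19, 1.03, 0.989 and 1.19 FPKM in cKO hearts and 2.14, 1.92, 2.03 and 1.63 FPKM in control hearts (log2 fold change -0.60 ± 0.09 SE, adjusted p = 0.00199). At this low level the pseudocount of 0.5 FPKM reduces the fold change, and the cKO mean was 56.9% of the control mean. Echs1, the short-chain enoyl-CoA hydratase, was 74.3, 75.1, 74.0 and 73.1 FPKM in cKO hearts, against 86.2, 87.5, 107 and 88.7 FPKM in control hearts (log2 fold change -0.31 ± 0.07 SE, adjusted p = 0.0115). Here control library 3 was the highest, and the other control libraries were above the cKO libraries as well. Hadh, Acaa1a and Acaa2, a dehydrogenase and thiolases of mitochondria and peroxisomes, were not called, with log2 differences of -0.08, 0.00 and -0.07. Acaa1a has a near-identical copy, Acaa1b, so the division of reads between them is uncertain.

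Hadha and Hadhb encode the alpha and beta subunits of the mitochondrial trifunctional protein, which carries out 3 steps of the spiral on long chains. They are transcribed away from each other from start sites 273 bases apart, at positions 30154980 and 30155253 of chromosome 5, and the promoter printed above for Hadha shares 228 bases with the RefSeq window of Hadhb. Hadha was 69.1, 66.0, 62.6 and 67.4 FPKM in cKO hearts, against 73.9, 71.9, 76.7 and 75.5 FPKM in control hearts (log2 fold change -0.17 ± 0.05 SE, limma adjusted p = 0.0262), with differences of -0.08 within OGF355 and -0.22 within OGF373. Hadhb was 163, 167, 149 and 167 FPKM in cKO hearts and 137, 134, 172 and 139 FPKM in control hearts. Control library 3 was above all cKO libraries for Hadhb and the other control libraries were below them (log2 difference 0.16 ± 0.09 SE, adjusted p = 0.21), and without control replicate 3 Hadhb was called as higher. The ratio of Hadha to Hadhb FPKM was 0.424, 0.394, 0.421 and 0.404 in cKO libraries, against 0.539, 0.538, 0.445 and 0.543 in control libraries. These ratios did not overlap between the groups. The pair was chosen after its values were seen, so the ratio is a description with no test. The call of Hadha was lost in 8 of 21 settings, among them the leaving out of cKO replicate 2, 3 or 4 or of control replicate 1 or 4.

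**Figure D3:**
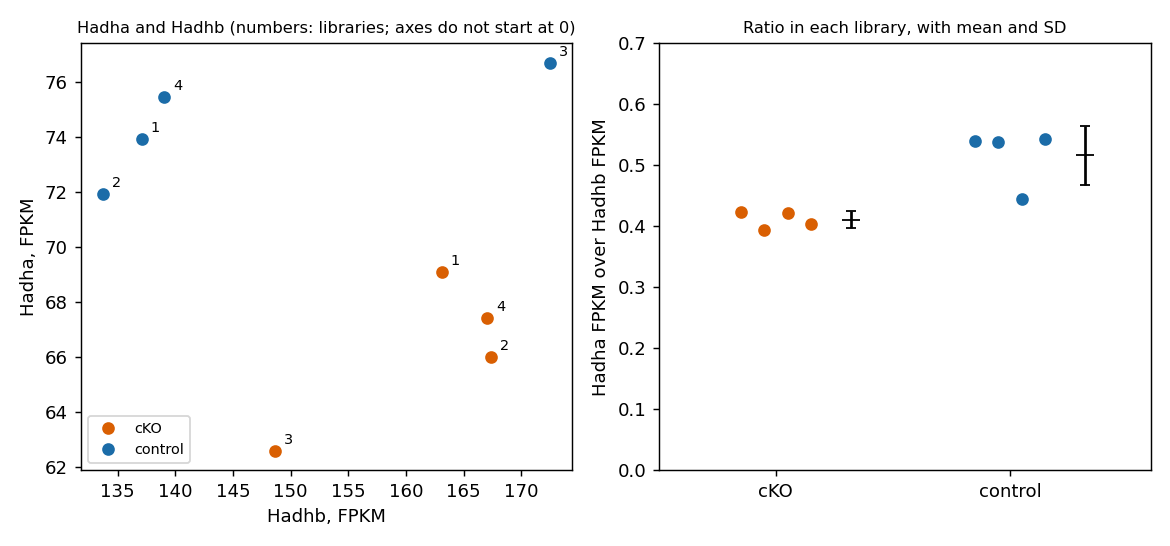
Left, Hadha against Hadhb in FPKM, with the number of each library; right, their ratio in each library, cKO left of control, with mean and SD (n = 4 each). The ratio averaged 0.411 ± 0.0141 in cKO and 0.516 ± 0.0477 in control libraries, with control library 3 at 0.445.

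The auxiliary enzymes, which prepare unsaturated acyl chains for the spiral, and the electron transfer proteins were lower in 2 of 3 members each. Over all entries tested, 14.9% were lower. Eci2, an enoyl-CoA isomerase of mitochondria and peroxisomes, was 30.8, 28.7, 29.8 and 27.5 FPKM in cKO hearts, against 40.4, 41.6, 49.5 and 41.6 FPKM in control hearts (log2 fold change -0.56 ± 0.07 SE, limma adjusted p = 0.000783). Decr1, the mitochondrial dienoyl-CoA reductase, was 19.6, 21.1, 20.3 and 19.5 FPKM in cKO hearts and 23.3, 23.1, 28.0 and 24.4 FPKM in control hearts (log2 fold change -0.29 ± 0.07 SE, adjusted p = 0.0115). Control library 3 was highest for both, and every other control library also exceeded every cKO library. Eci1, the mitochondrial isomerase, overlapped between the groups at 59.7 to 77.6 FPKM in cKO hearts and 55.6 to 78.8 FPKM in control hearts and was not called. It was called as higher without control replicate 3.

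Etfb, the beta subunit of the electron transfer flavoprotein, was 154, 144, 141 and 142 FPKM in cKO hearts, against 198, 194, 239 and 189 FPKM in control hearts (log2 fold change -0.49 ± 0.08 SE, limma adjusted p = 0.00239). Etfdh, the oxidoreductase that passes these electrons to ubiquinone, was 52.1, 50.2, 49.0 and 51.2 FPKM in cKO hearts and 60.7, 60.7, 72.6 and 64.7 FPKM in control hearts (log2 fold change -0.35 ± 0.06 SE, adjusted p = 0.00422). The alpha subunit, Etfa, was not called, with means of 114 ± 3.49 FPKM in cKO and 119.6 ± 13.5 FPKM in control hearts (SD, n = 4 each, log2 difference -0.06, adjusted p = 0.554).

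Of the 3 regulators among the members, 2 were tested, Ppard and Ppargc1a, and neither was called. Other regulators, such as Ppargc1b, are given below with the partners of PPAR. Ppara, the PPAR of fatty acid catabolism in heart and liver, was below the level required for testing, at 0.682, 0.593, 0.598 and 0.739 FPKM in cKO hearts and 0.498, 0.576, 0.532 and 0.623 FPKM in control hearts. Ppard, the PPAR of wider expression, was 6.18, 5.45, 6.42 and 6.26 FPKM in cKO hearts and 6.31, 6.22, 5.61 and 5.58 FPKM in control hearts (log2 difference 0.03 ± 0.06 SE, limma adjusted p = 0.739). Ppargc1a, the coactivator PGC-1alpha, was 10.3, 11.8, 10.7 and 12.1 FPKM in cKO hearts, against 12.1, 12.2, 12.2 and 12.9 FPKM in control hearts (log2 difference -0.14 ± 0.06 SE, adjusted p = 0.11). Both Ppard and Ppargc1a overlapped between the groups. Of the enzymes beside the main path, Mlycd, which removes the CPT1 inhibitor malonyl-CoA, was lower at 8.35, 7.15, 7.48 and 6.81 FPKM in cKO hearts, against 9.10, 8.40, 9.87 and 8.53 FPKM in control hearts (log2 fold change -0.25 ± 0.07 SE, adjusted p = 0.0279). Acot2, a mitochondrial thioesterase that frees fatty acids from CoA, was higher at 11.0, 10.4, 9.81 and 10.4 FPKM in cKO hearts, against 8.10, 8.92, 9.30 and 6.91 FPKM in control hearts (log2 fold change 0.31 ± 0.09 SE, adjusted p = 0.0229). Acot1 is a near-identical copy of Acot2, so their reads may have been divided between them. The calls of Mlycd and Acot2 were each lost in 6 of 21 settings.

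By level, lower members were found among both abundant and scarce genes. Of the 15 tested members with a control mean of at least 50 FPKM, 8 (53.3%) were lower and 0 were higher by limma (0 also at an unadjusted p under 0.05), where 14.1% of the 1599 entries at that level were lower and 9.82% were higher. Of the other 23, 8 (34.8%) were lower and 5 (21.7%) were higher, against 15% and 16.7% of the 11030 other entries. The FPKM of all 39 members summed to 2002, 2005, 1884 and 1992 in cKO libraries, against 1995, 1987, 2406 and 2032 in control libraries, and the groups overlapped. The difference in means was -134.5 FPKM with all libraries and -34.3 FPKM without control library 3. The FPKM of all entries also summed highest in control library 3, to 637528, against 538581 to 597408 in the other libraries. As a share of that sum, the members made up 0.342%, 0.3357%, 0.3159% and 0.3543% in cKO libraries. In control libraries they made up 0.3705%, 0.3531%, 0.3774% and 0.3456%, and the groups overlapped. Fabp3 alone made up 23.0% of the mean sum in cKO hearts and 19.1% in control hearts.

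**Figure D4:**
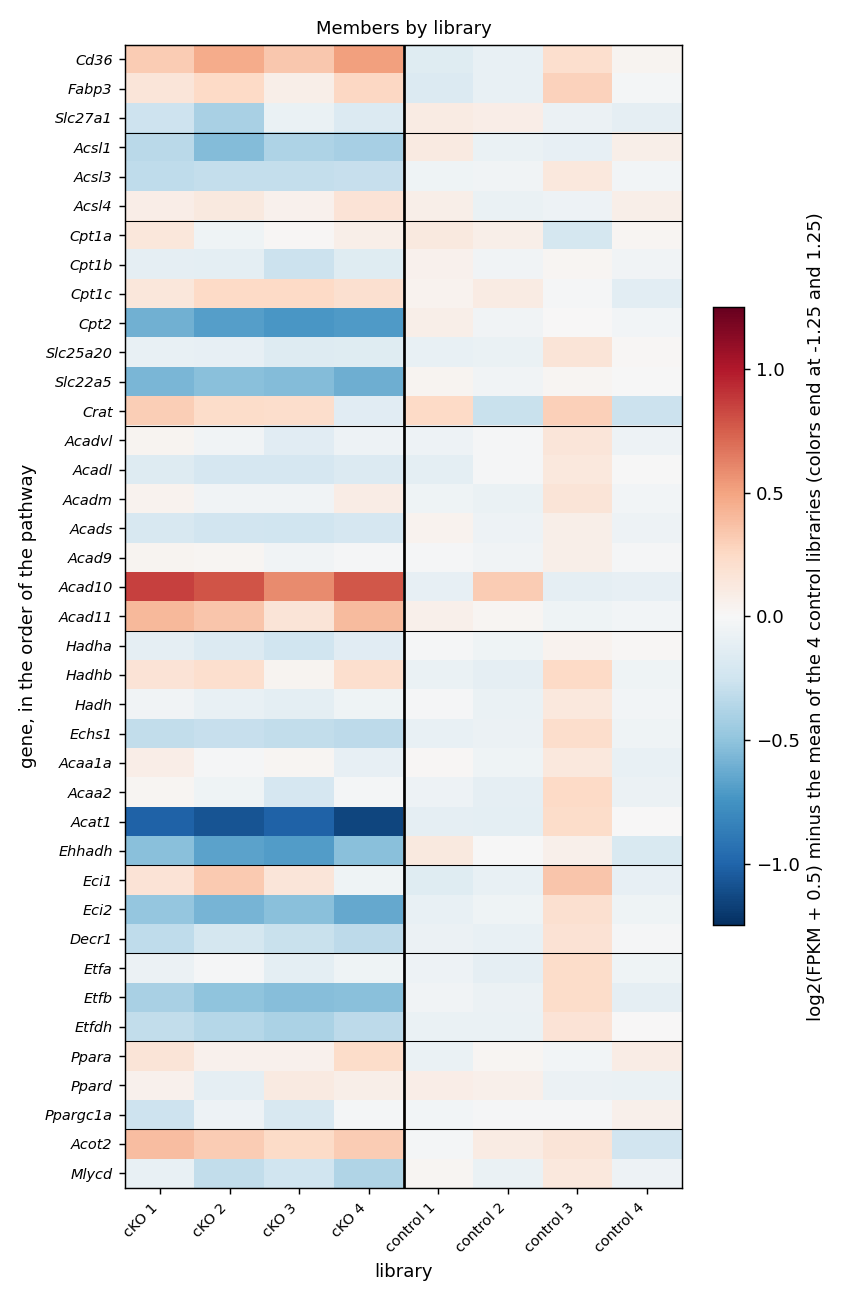
Log2(FPKM + 0.5) of each member minus the mean of the 4 control libraries, with cKO libraries on the left and rows in the order of the pathway. The rows of Acat1, Cpt2, Slc22a5, Ehhadh and Eci2 are blue in all 4 cKO libraries, Acad10 is red, and control library 3 is the highest control in 25 of the 38 tested members.

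Genes of neighboring pathways were counted from lists that exclude the members. The list of other fatty acid pathway genes also holds genes of uptake, binding, synthesis and amino acid breakdown, such as Fabp4, Fabp5, Acaca and Acad8. Of its 39 tested genes, 15 (38.5%) were lower and 6 (15.4%) were higher, against 14.9% and 15.9% of all entries. The lower ones included Pcca and Pccb, the subunits of propionyl-CoA carboxylase (log2 fold changes -0.97 and -0.40, adjusted p = 0.00012 and 0.000264 from limma), and Decr2, the peroxisomal dienoyl-CoA reductase (-0.52, adjusted p = 0.000422). Acad12 was the higher gene with the smallest adjusted p. Of 28 genes of pyruvate entry and the tricarboxylic acid cycle, cytosolic forms of its enzymes included, 14 (50%) were lower and 3 (10.7%) were higher. Over all entries tested, 14.9% were lower and 15.9% were higher. Mdh1, the cytosolic malate dehydrogenase, and Aco1, the cytosolic aconitase, were lower, with log2 fold changes of -0.53 and -0.35, while Pcx, pyruvate carboxylase, and Dlat, a subunit of pyruvate dehydrogenase, were higher by 0.70 and 0.27 on the log2 scale. Of 8 genes of ketone body use other than Acat1, 0 were lower (0 also at an unadjusted p under 0.05) and 3 were higher by limma, among them Bdh1 and Slc16a7 (log2 fold changes 0.27 and 0.29). The calls of Bdh1 and Slc16a7 were lost in 7 of 21 and 11 of 20 settings. With no filter on low values, 1 gene of this list was lower and 0 were higher. Bdh2, which was too low to be tested, averaged 0.594 FPKM in cKO and 0.955 FPKM in control hearts.

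Lists of lipid supply and of PPAR partners were nearer the background. Of 15 genes of lipid supply and storage, 3 (20%) were lower and 3 (20%) were higher. Abhd5, the activator of adipose triglyceride lipase, and Lpin1, a phosphatidate phosphatase, were higher by 0.45 and 0.58 on the log2 scale, and Pnpla2, the triglyceride lipase itself, and Lmf1, a maturation factor of lipoprotein lipase, differed by -0.21 and -0.37. Of 21 partners and targets of PPAR, 4 (19%) were lower and 5 (23.8%) were higher. Pdk4, a kinase that inhibits pyruvate dehydrogenase and a known PPAR target, had means of 4.17 ± 0.208 FPKM in cKO and 7.07 ± 0.199 FPKM in control hearts (SD, n = 4 each, log2 fold change -0.70, adjusted p = 6.12e-05 from limma). Txnip, an inhibitor of glucose uptake, was also lower (-0.55, adjusted p = 0.000554). Klf15, a Kruppel-like factor of cardiac lipid metabolism, was higher (0.87, adjusted p = 8.26e-05), as was Ppargc1b, the coactivator PGC-1beta (0.71, adjusted p = 0.00163). These counts describe the lists, and no test of a list against other genes was made.

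**Figure D5:**
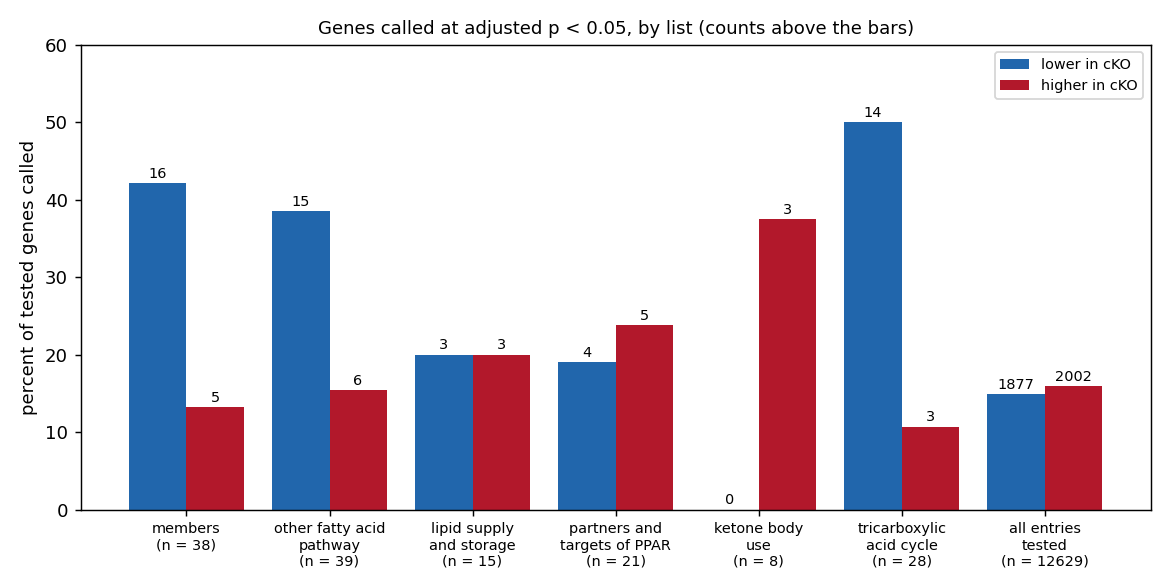
Percent of the tested genes of each list called lower (blue, left) and higher (red, right) in cKO hearts, with counts above the bars and the number tested below. Among the members 42.1% were lower and 13.2% higher, and among all entries 14.9% were lower and 15.9% higher.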

How the data were processed

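Whole hearts were dissected at E11.5 and mRNA libraries were made with a stranded kit. With TopHat2 and Bowtie2 the authors mapped the reads to mm10, and they deposited FPKM per gene entry (unit entered as other, since 1.32% of cells hold text codes for failed or low estimates). Versions, annotation and strand setting of the counting are not given in the sources used here. A column of p-values of the authors' own comparison was not used. The 12629 entries that had numbers throughout and averaged 1 FPKM or more were fitted on log2(FPKM + 0.5) with limma 3.58.1 (R 4.3.3; group means, empirical Bayes with trend), with calls made at an adjusted p (Benjamini-Hochberg) under 0.05. Fold changes are on this scale, which understates changes of low genes. Read counts were not used, so precision comes from the spread among 4 libraries a group. The labels do not say that these came from separate hearts, so p-values may measure technical spread. Promoters (RefSeq, GRCm38.p6) and transcript lengths (GENCODE) were read with Python 3.11.15, and positions of genes are taken from the deposited table.

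The members and lists were chosen with earlier results of these data known. Values by library are given for the 16 called members with the largest change, the regulators, the Cpt1 isoforms and the uptake genes. Of each other pathway list, up to 4 called genes with the smallest adjusted p are named. For 1 such gene the value is not reported here. Hadha, Hadhb and the neighbors of Acad10 were added after their values were seen. Alternatives were pseudocounts of 0.1 and 1, no filter or a minimum mean of 5 FPKM, scaling by quantiles or median ratios, haemoglobin genes removed, no variance trend, array weights, the replicate number as a block, the prefix of the descriptions as a covariate or OGF373 alone, and each library left out in turn. Removal of each library's trend with transcript length was added after the data were seen.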

Additional observations from a re-analysis of the deposited data

Results flagged for a closer look

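In 80 groups of 4 libraries (39 members, and their sum, in each genotype), 10 held a library far from the other 3, and chance gives about 1 in 20. Of the 10, 8 were control library 3, always as the highest. Its values were 25.7 FPKM for Acsl3 (22.6 to 22.8 in the other control libraries), 172 FPKM for Hadhb (134 to 139), 107 FPKM for Echs1 (86.2 to 88.7) and 116 FPKM for Acaa2 (89.7 to 92.6). They were 78.8 FPKM for Eci1 (55.6 to 58.1), 49.5 FPKM for Eci2 (40.4 to 41.6), 139.7 FPKM for Etfa (110.5 to 115) and 239 FPKM for Etfb (189 to 198). Acad10 was highest in control library 2 at 1.66 FPKM (1.11 to 1.12 in the others), and Ppargc1a in control library 4 at 12.9 FPKM (12.1 to 12.2).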

How the results depend on the processing

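No result changed direction with a call under any alternative. Of the 21 called members, 10 kept their call under all alternatives that could be run, and 15 (12 lower and 3 higher) kept it when the setting of OGF373 alone, with 3 cKO and 2 control libraries, was set aside. Of the 17 members not called, 6 (Fabp3, Slc27a1, Acsl4, Slc25a20, Hadhb and Eci1) were called under some alternative, and Ppara, tested with no filter, was not (log2 difference 0.12, limma adjusted p = 0.207). With OGF373 alone, 9 members were lower and 2 were higher, and 19 of the other pathway genes were lower and 8 were higher, against 36 and 19 with all libraries. In that setting 5.75% of all entries were lower and 5.86% were higher. Higher members numbered 3 with no filter, 3 at a mean of at least 5 FPKM and 9 with array weights, and higher genes of the other lists 12 at a mean of at least 5 FPKM and 35 with array weights. The share of all entries that was higher was 8.47% with no filter, 16.1% at a mean of at least 5 FPKM and 27.5% with array weights, against 15.9% in the results as reported. Leaving out 1 library gave 12 to 16 lower and 3 to 8 higher members, with 3 higher without cKO replicate 2 or 4 and 8 higher without control replicate 3, where 22.2% of all entries were higher. It gave 28 to 38 lower and 11 to 30 higher genes of the other lists, with 11 higher without cKO replicate 4, 12 without cKO replicate 1 or control replicate 2 and 30 without control replicate 3. Members higher with no overlap numbered 5 to 8, the 8 without control replicate 3. The summed FPKM of the members, cKO minus control, differed by -173.8 to -34.3. With the length trend removed, 18 members were lower and 6 were higher, against 21.4% and 20.7% of all entries.

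Samples with the same replicate number deviated together with correlations between -0.012 and 0.158, and 2 of 4 correlated best with their own number, so the numbers were not taken as pairs. With a replicate block in limma 13 members were lower and 5 were higher. No read counts were used, so the limit that depth sets was not computed.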
